A study of Homo sapiens with 24 samples.

Results

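The transcriptional response of MDA-MB-453 cells to the CDK4 and CDK6 inhibitor abemaciclib was described across all expressed genes. It rests on 6 of the 24 libraries of the series, 3 from cells given abemaciclib at 500 nM and 3 from cells given the solvent DMSO, both for 5 days. All 6 are from cells labelled wild type, grown in DMEM with foetal serum, and the labels call the 3 libraries of each group biological replicates. The series also holds the mesenchymal line MDA-MB-231 and, in each line, the selective oestrogen receptor degrader fulvestrant at 5 nM, alone and with abemaciclib. Gene levels were measured by 3′ RNA-seq, in which reads start near the polyadenylated end of a transcript, so that counts do not scale with transcript length. A single established line was used, and counts from bulk RNA cannot tell apart a change in the share of cells in a given state from a change in RNA per cell.

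MDA-MB-453 is an oestrogen receptor-negative breast cancer line of a luminal kind that resembles the apocrine, sweat gland-like epithelium. CDK4 and CDK6, with D-type cyclins, phosphorylate the retinoblastoma protein Rb and thereby release E2F transcription factors, which switch on genes of DNA replication. Cells in which these kinases are blocked leave the cycle in G1 and can enlarge and take on features of senescence or differentiation.

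The line label was checked against marker genes. All 15 genes chosen to mark luminal apocrine epithelium were detected, with summed counts of 27590 to 29135 per DMSO library and 28014 to 34178 per abemaciclib library. Of 22 markers of immune, endothelial, fibroblast, red blood, basal and mesenchymal cells, 15 had 0 counts in all 6 libraries, and the summed counts of the list were 128 to 175 under DMSO and 66 to 78 under abemaciclib. Library totals ran from 3421902 to 3653867 counts under DMSO and from 3326673 to 3952218 under abemaciclib, and replicates had a biological coefficient of variation of 12.6%. The share of counts from the mitochondrial genome was 15.2% ± 0.650 (SD, n = 3) under DMSO and 23.8% ± 1.91 under abemaciclib. Abemaciclib replicate 1 stood apart from the other 2, with a chi-square per degree of freedom of 7.67 and 8.18 against them, where the remaining pair gave 3.76 and the DMSO pairs 2.78 to 3.07. Without it, 1744 genes were called higher and 2055 lower. The part of the mitochondrial share and of this library in single results was not tested beyond the values given beside them.

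The quasi-likelihood test of edgeR was applied to 11080 genes, and a gene was called at a p below 0.05 after Benjamini-Hochberg adjustment. In all, 3987 genes (36.0%) were called, of which 1843 (16.6%) were higher and 2144 (19.4%) lower with abemaciclib. These shares are the background against which the count of any gene list is to be read. The response was lopsided in size. Changes of at least 2-fold comprised 502 genes higher (4.53%) and 851 lower (7.68%), those of at least 4-fold 107 and 346, and those of at least 16-fold 11 and 110. Genes on the lists of DNA replication and mitosis made up 79 of those last 110 but only 245 of all 2144 lower genes. Most decreases were thus below 2-fold, and most were of genes on neither list. The lists do not hold every gene tied to the cell cycle, and PCLAF, a partner of the replication clamp, is on neither. The median log2 fold change over all tested genes was −0.002. Of the genes called, 624 of the 1843 higher (33.9%) and 890 of the 2144 lower (41.5%) were on at least 1 of the 41 lists or 43 symbol families used here, against 30.6% of all tested genes.

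**Figure D1:**
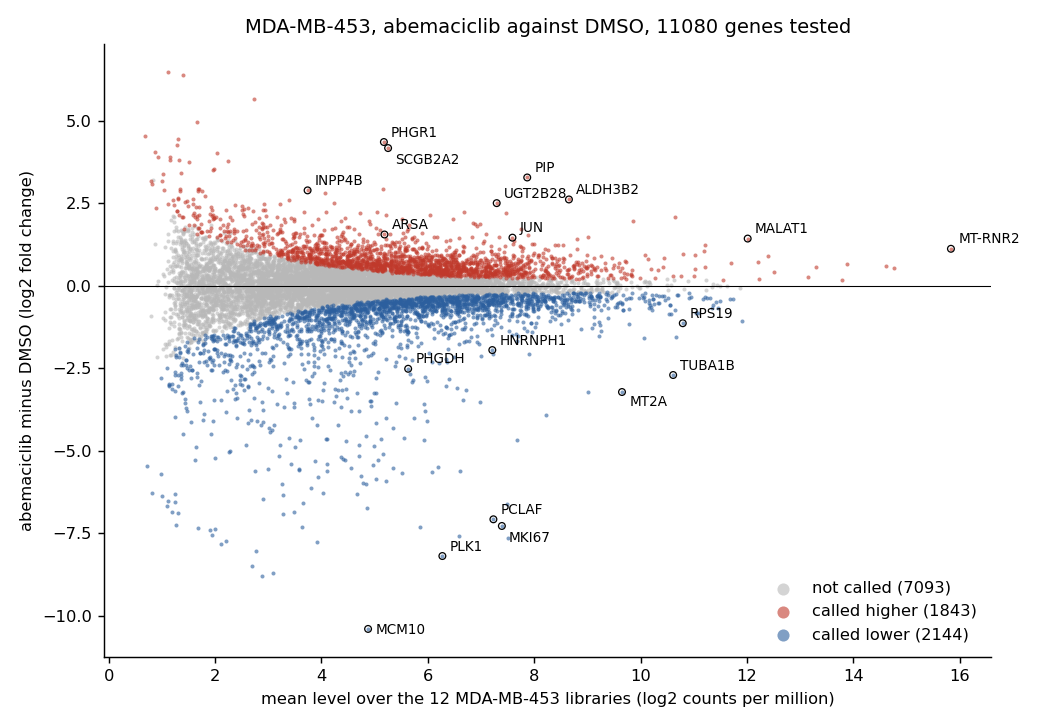
Log2 fold change between abemaciclib and DMSO (vertical axis) against the mean level over the 12 MDA-MB-453 libraries in log2 CPM (counts scaled to a common library total, horizontal axis), 1 point per gene tested, with called genes in red (1843 higher) and blue (2144 lower). MCM10, whose fitted value is the lowest, went from 510 counts over the DMSO libraries to 0, at least 174-fold lower by the floor of 3 counts over the group, while PHGR1, at 4.36, is the largest increase among genes of at least 10 CPM, and the abundant transcripts on the right are mostly above 0 for mitochondrial RNA and below 0 for ribosomal protein genes such as RPS19.

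Members of the apocrine and mammary secretory list gave the 3 largest increases among called genes that averaged at least 10 CPM without group overlap. Rarer transcripts had larger fitted values. Of 51 list members among the deposited genes, 19 passed the expression filter and were tested. Of these 11 rose and 3 fell, with a median log2 fold change of 1.69. The list, PHGR1 included, was written by hand with earlier results of these data known, so these values are a description. A gene could also pass the filter through a single group. Levels are given here in CPM, after edgeR's TMM scaling over the tested genes. PHGR1, on GRCh38 chromosome 15 from 40351033 to 40356434, plus strand, stood at 3.47, 4.60 and 2.55 CPM in the DMSO libraries and at 70.7, 71.3 and 78.4 CPM in the abemaciclib libraries. SCGB2A2, which encodes mammaglobin A and lies on chromosome 11 from 62270158 to 62273160, plus strand, stood at 3.47, 2.71 and 5.66 CPM and then at 77.1, 59.0 and 78.4 CPM. PIP, the prolactin-induced protein used to mark apocrine tumours, with its gene on chromosome 7 from 143132077 to 143139739, plus strand, stood at 39.6, 47.9 and 43.0 CPM and then at 424, 464 and 383 CPM. For each of these genes every abemaciclib library lay above every DMSO library, which the choice of genes without group overlap required. The log2 fold changes were 4.36 (SE 0.22, adjusted p 4.22e-21), 4.17 (SE 0.25, adjusted p 1.08e-18) and 3.28 (SE 0.11, adjusted p 1.68e-28).

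CST4, a secreted cystatin, rose from 1.73, 6.77 and 8.77 CPM to 32.0, 23.5 and 26.8 CPM, which is 2.24 on the log2 scale (SE 0.31, adjusted p 7.16e-08), and its DMSO libraries were the less even. GPRC5B, an orphan receptor outside this list, rose from 7.22, 2.17 and 3.11 CPM to 29.7, 33.2 and 25.1 CPM, which is 2.82 (SE 0.33) and, without DMSO replicate 1, 3.46 on the log2 scale. The other 7 risers are named here after their values were seen: CLU, the extracellular chaperone clusterin (2.21), ZG16B (2.14), the small mucin MUCL1 (2.13), NUCB2 (1.89), the trefoil factor TFF3 (1.87), the matrix protein MGP (0.60) and AZGP1 (0.31). The direction was not shared by the whole list. SLPI, a secreted inhibitor of leukocyte proteases, fell from 94.1, 87.4 and 98.8 CPM to 52.9, 34.9 and 39.5 CPM (log2 fold change −1.13, SE 0.15, adjusted p 1.67e-08), and AGR2, a disulphide isomerase of the secretory pathway, fell by 0.51 on the log2 scale (SE 0.10, adjusted p 3.60e-05). The third member that fell, S100A9, a calcium-binding protein of myeloid and inflamed epithelial cells, is also named after its values were seen. It had 27 counts over the DMSO libraries and 3 over the abemaciclib libraries, which is 9.21 times lower (95% interval 2.83 to 47.4, adjusted p 0.00864). The summed level of the list went from 2270, 2240 and 2220 CPM to 4040, 3540 and 3640 CPM.

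**Figure D2:**
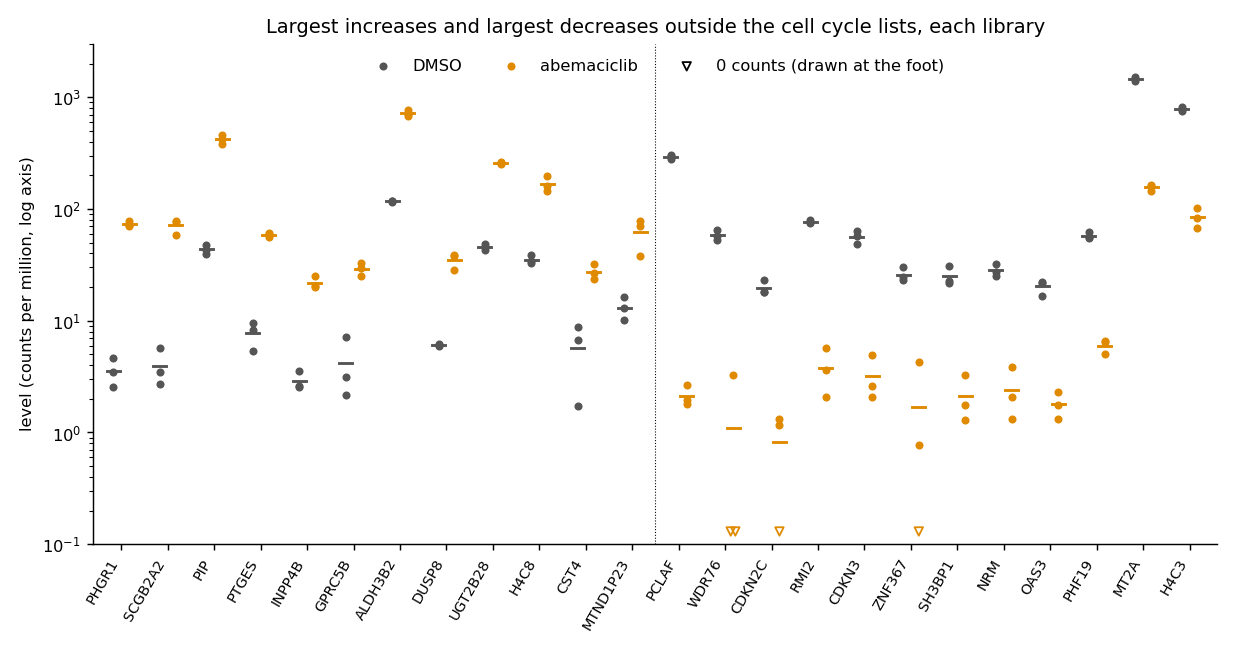
Level in CPM (log axis) of the 12 largest increases and of the 12 largest decreases outside the cell cycle lists, among called genes that averaged at least 10 CPM and whose groups did not overlap. Grey points are the 3 DMSO libraries, orange points the 3 abemaciclib libraries, bars the mean of each group and open triangles libraries with 0 counts.

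INPP4B and UGT2B28 were among the 12 largest increases shown in the plot by library. INPP4B, a phosphoinositide phosphatase that limits AKT signalling, stood at 2.60, 3.52 and 2.55 CPM under DMSO and at 19.9, 20.3 and 25.1 CPM under abemaciclib (log2 fold change 2.89, SE 0.36, adjusted p 1.08e-08). UGT2B28, an enzyme that glucuronidates steroids, rose from 48.8, 45.8 and 42.7 CPM to 254, 266 and 259 CPM (2.50 on the log2 scale, SE 0.11, adjusted p 6.95e-24). Its close paralogue UGT2B11, named after its values were seen, rose by 1.96 on the log2 scale to 1400, 1574 and 1602 CPM, and reads that both genes could have produced make the split between them uncertain. In the other direction, XRCC6, a subunit of the Ku heterodimer of DNA repair, fell by 0.69 on the log2 scale and NDRG1, a stress-responsive gene, fell by 0.86.

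ABC transporters and cytochromes P450 had the highest shares of genes called higher among the symbol families of at least 10 tested genes. ALDH3B2, an aldehyde dehydrogenase found on lipid droplets, stood at 119, 116 and 117 CPM under DMSO and at 771, 704 and 683 CPM under abemaciclib, which is 2.62 on the log2 scale (SE 0.09, adjusted p 9.81e-28). The ALDH family itself was balanced, with 3 of 11 tested genes higher and 3 lower (median −0.1). PTGES, the inducible prostaglandin E synthase, rose from 9.53, 5.41 and 8.21 CPM to 56.2, 59.9 and 60.4 CPM (2.93, SE 0.22, adjusted p 2.01e-15), and CYP4F8, a cytochrome P450 that hydroxylates prostaglandins, rose from 34.9, 34.7 and 23.5 CPM to 120, 114 and 107 CPM (1.88, SE 0.15, adjusted p 9.52e-15). Groups lay well apart for ALDH3B2, PTGES and CYP4F8, and for ALDH3B2 and PTGES a lack of overlap was a condition of their choice. Of 10 cytochrome P450 genes tested, 4 rose and 0 fell, and of 27 ABC transporters 11 rose and 2 fell, which is 40.7% higher against 16.6% of all genes, and the 2 became 1 without DMSO replicate 3. ABCC5, an exporter of cyclic nucleotides, gained 1.49 and ABCA12, a lipid transporter of epithelia, 1.19 on the log2 scale, while the mitochondrial ABCB8 (−0.90) was no longer called without DMSO replicate 3 (adjusted p 0.0883). Solute carriers as a class moved no more often than genes at large, with 36 of 191 higher and 33 lower.

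Of 29 tested transcription factors of the luminal and mammary lineage, 13 rose and 2 fell (median 0.24). SOX4 rose from 263, 251 and 241 CPM to 594, 729 and 686 CPM (log2 fold change 1.41, SE 0.09, adjusted p 3.78e-18). CREB3L1, a transcription factor held in the membrane of the endoplasmic reticulum, rose by 1.34 (SE 0.18, adjusted p 4.12e-08) and BATF, a factor best known from lymphocytes, by 1.47 (SE 0.37, adjusted p 0.00123). GATA3 gained 0.35 (SE 0.08, adjusted p 5.52e-04), whereas FOXA1, the pioneer factor of luminal cells, stood at 169, 191 and 213 CPM under DMSO and at 217, 204 and 179 CPM under abemaciclib, with overlapping groups and a log2 value of 0.07 (SE 0.10, adjusted p 0.649). XBP1 fell by 0.40 and ID1, an inhibitor of helix-loop-helix factors, by 0.72 on the log2 scale. Of the paired luminal keratins, KRT8 rose by 0.83 (SE 0.09, adjusted p 2.67e-10) and KRT18 had a value of −0.08 (SE 0.08, adjusted p 0.506). Their exons overlap on opposite strands, as do those of many genes named here, and the sources used here do not give the strand setting of the counting.

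Receptor tyrosine kinases and their feedback genes moved mainly upwards. Of 43 tested receptors, ligands and adaptors 17 rose and 7 fell (median 0.37), and of 33 MAPK feedback and immediate early genes 16 rose and 3 fell (median 0.52). The receptor genes ERBB2 and ERBB3 gained 0.91 (SE 0.09) and 0.52 (SE 0.09). PIK3R3, a regulatory subunit of phosphoinositide 3-kinase, gained 1.26 (SE 0.10) and PIK3IP1, an inhibitor of that kinase, 1.58 (SE 0.34). IGFBP5, a secreted binding protein of insulin-like growth factors, fell from 827, 760 and 813 CPM to 357, 372 and 399 CPM (−1.09, SE 0.08, adjusted p 1.39e-15). Every library of one group lay on 1 side of the other group for ERBB2 and for IGFBP5.

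The phosphatases that shut off MAP kinases did not move together. DUSP6, which acts on ERK, rose from 51.4, 55.2 and 52.1 CPM to 205, 167 and 186 CPM (1.81, SE 0.12, adjusted p 1.50e-17). DUSP8, which acts on stress-activated MAP kinases, rose from 6.06, 6.23 and 5.94 CPM to 28.6, 38.5 and 37.6 CPM (2.51, SE 0.25, adjusted p 3.07e-11). DUSP4 fell from 43.3, 48.2 and 42.5 CPM to 17.8, 24.1 and 21.9 CPM (−1.08, SE 0.18, adjusted p 5.67e-06). No library crossed between groups for any of these phosphatases, which for DUSP8 was a condition of its choice. The AP-1 subunit gene JUN rose from 98.2, 97.5 and 102 CPM to 267, 274 and 276 CPM (1.46, SE 0.10, adjusted p 6.33e-17), and the early genes KLF6 and KLF9 gained 1.13 and 1.09, with 3 of the 11 KLF genes higher and 0 lower (1 lower without abemaciclib replicate 2).

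Among genes of contact with neighbours and matrix, 15 of 50 junction and adhesion genes rose and 6 fell, the latter 3 without abemaciclib replicate 2. LAMA5, a laminin chain of epithelial basement membranes, gained 1.26 (SE 0.23) and MARVELD3, a tight junction protein, 1.03 (SE 0.12), while CTNNB1, which encodes beta-catenin, fell by 0.60 and ITGB5 by 0.46. Of 19 tested collagens and matrix enzymes 4 rose and 7 fell. PLOD2, a lysyl hydroxylase that prepares collagen for cross-linking, went from 24.3, 27.6 and 18.7 CPM to 3.61, 2.64 and 3.27 CPM (−2.87, SE 0.36, adjusted p 6.70e-09), and COL4A5, a collagen of basement membranes, gained 1.55 (SE 0.27). The transcriptional repressor HES1, a Notch target, and CCN1, a matricellular protein under Hippo control, rose by 1.23 (SE 0.09) and 1.35 (SE 0.13), although the wider list of Notch, Wnt, TGF-beta and Hippo genes was balanced, with 10 of 53 higher and 8 lower.

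Of the gene lists, that of the lysosome held the largest number of genes that rose. By share it came after the lists of the mitochondrial genome (93.3%), apocrine secretion (57.9%) and the endoplasmic reticulum (50.8%). Lysosomes are acidic organelles filled with hydrolases that break down macromolecules, and many of their genes share a promoter element read by the TFEB family of factors. Of 77 tested lysosomal genes 39 rose (50.6%) and 4 fell, with a median of 0.43, and their summed level went from 9540, 9800 and 9990 CPM to 16100, 15700 and 15500 CPM. ARSA, the sulphatase that degrades sulphatides, rose from 15.9, 23.0 and 17.3 CPM to 55.7, 57.3 and 52.3 CPM (1.55, SE 0.18, adjusted p 1.25e-09). IGF2R, the mannose-6-phosphate receptor that sorts hydrolases to the lysosome, rose from 58.6, 60.6 and 68.2 CPM to 165, 170 and 190 CPM (1.48, SE 0.12, adjusted p 1.28e-14). Both had every abemaciclib library above every DMSO library. LIPA, the acid lipase, fell by 1.37 (SE 0.30) and the protease gene CTSC by 1.16 (SE 0.30) on the log2 scale.

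Promoter sequences were examined for this group because its members moved together. RefSeq promoters of 300 bases, from 250 bases before to 50 after the start site on GRCh38.p14, matched 8506 of the 11080 tested genes (76.8%), and 16 motifs were searched on both strands. Besides the letters used in the results, these were CCAAT (the NF-Y box), TTTGGCGC (another E2F form), CCGGAAG (ETS), AGAACA (the core of a steroid receptor site), TGTTTAC and the related TGTTTGC (forkhead), TGACGTCA (CREB), TATAAA (the TATA box), TTCCNGGAA (STAT), and the NRF1, sterol and ZNF143 elements. TCACGTGA, the letters of the element read by the TFEB family, was in 11 of 56 lysosomal promoters (19.6%), against 2.05% of all 8506, 2.92% of those of higher genes and 1.49% of those of lower genes. Among the 11 lysosomal genes with these letters 9 rose and 0 fell (median 0.65), and among the 45 without them 19 rose and 2 fell (median 0.33). The shorter core CACGTG, which every TCACGTGA contains, was in 28.6% of lysosomal promoters and 10.6% of all, but also in 35.4% of promoters of ribosome biogenesis genes, of which more fell than rose. The promoters of the 2 lysosomal genes with the largest increase among those that hold TCACGTGA are printed from 250 bases before to 20 after the start site, with each copy of the motif in capitals. GALNS, which encodes a lysosomal sulphatase, gained 1.32 (SE 0.26, adjusted p 4.87e-05).
IGF2R promoter, chr6:159968832-159969101, plus strand: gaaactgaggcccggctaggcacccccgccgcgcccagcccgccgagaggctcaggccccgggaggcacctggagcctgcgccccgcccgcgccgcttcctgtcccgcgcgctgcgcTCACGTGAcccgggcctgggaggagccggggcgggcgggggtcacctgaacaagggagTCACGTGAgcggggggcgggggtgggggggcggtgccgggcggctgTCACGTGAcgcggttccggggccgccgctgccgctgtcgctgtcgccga
GALNS promoter, chr16:88856928-88857197, minus strand: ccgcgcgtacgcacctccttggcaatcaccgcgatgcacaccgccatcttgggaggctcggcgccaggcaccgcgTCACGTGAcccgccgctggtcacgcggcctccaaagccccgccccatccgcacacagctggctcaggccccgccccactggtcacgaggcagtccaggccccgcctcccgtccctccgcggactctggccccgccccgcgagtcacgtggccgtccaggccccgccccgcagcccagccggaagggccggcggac
The copies in IGF2R begin at positions −133, −75 and −29 from the start site, and that in GALNS at −175. The match describes the letters in this window and is not evidence of binding.

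Genes of autophagy and membrane traffic also rose more often than they fell. Of 49 autophagy genes 13 rose and 3 fell, the latter 1 without DMSO replicate 3 or without abemaciclib replicate 2, and MAP1LC3B, which coats autophagosomes, gained 0.86 (SE 0.19). Among 51 symbols beginning with RAB, mostly small GTPases that label membranes, 12 rose and 3 fell, led by RAB29, a GTPase of the Golgi and lysosome (1.65, SE 0.17), and RAB18 (0.78, SE 0.13). VPS13C, a lipid transfer protein, gained 1.19 (SE 0.15) and VPS18, a subunit of the tethering complexes of late endosomes, 0.74 (SE 0.14), while the sorting nexin gene SNX7 fell by 1.49 (SE 0.23). VPS genes as a family gave 7 of 37 higher and 6 lower, near the shares of all genes. The 7 became 4 without DMSO replicate 2 or without abemaciclib replicate 1, and the 6 became 3 without DMSO replicate 3 or without abemaciclib replicate 3.

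Of 59 chaperones and stress sensors of the endoplasmic reticulum, where secreted proteins fold, 30 rose (50.8%) and 3 fell, with a median of 0.33. Their summed level was 11600 CPM in each DMSO library and 14200, 14200 and 14600 CPM in the abemaciclib libraries. The sensor kinase gene ERN1 rose from 8.09, 7.85 and 7.64 CPM to 27.6, 23.8 and 30.0 CPM (1.78, SE 0.25, adjusted p 1.01e-07), with no overlap. Its downstream factor XBP1 fell, as given above, and PDIA3, a disulphide isomerase for glycoproteins, gained 0.94 (SE 0.10). By contrast, of 47 cytosolic and mitochondrial heat shock genes 8 rose and 19 fell (median −0.18), with HSPA1B up by 0.93 (SE 0.13) and HSPB11, which also encodes a subunit of intraflagellar transport, down at −1.26 (SE 0.15). Of 41 genes of mucin-type and Golgi glycosylation 12 rose and 3 fell, the latter 1 without DMSO replicate 1. UGDH, which makes the UDP-glucuronate that UGT enzymes also use, rose from 19.1, 26.5 and 26.3 CPM to 73.3, 78.1 and 65.0 CPM (1.59, SE 0.17, adjusted p 1.59e-10), and FUT3, the Lewis fucosyltransferase gene, gained 1.24 (SE 0.18).

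Transcripts of the mitochondrial genome and of the nuclear genome for the same respiratory chain moved in opposite directions. The mitochondrial genome encodes core subunits of the chain and its own ribosomal RNAs, while most subunits are encoded in the nucleus. Of 15 mitochondrial transcripts 14 rose (93.3%) and 0 fell, with a median of 0.59 and a range of 0.16 to 1.22. MT-RNR2, the large ribosomal RNA, stood at 39000, 39100 and 43900 CPM under DMSO and at 64400, 97500 and 103000 CPM under abemaciclib (1.12, SE 0.10, adjusted p 1.21e-12). MT-ND4 went from 20700, 20200 and 21800 CPM to 30500, 30400 and 33600 CPM (0.59, SE 0.06, adjusted p 3.90e-11). Abemaciclib replicate 1 was the lowest of its group for MT-RNR2 and MT-ATP8, but still above every DMSO library. MTND1P23, a nuclear copy of the ND1 gene, gained 2.24 (SE 0.25), and since its sequence is close to that of MT-ND1 its identity is uncertain.

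Of 79 nuclear respiratory chain subunits 43 fell (54.4%) and 2 rose, with a median of −0.32. NDUFB8 went from 142, 128 and 148 CPM to 90.8, 61.1 and 71.5 CPM (−0.89, SE 0.13, adjusted p 1.98e-07) and NDUFB9 from 434, 432 and 454 CPM to 269, 261 and 254 CPM (−0.75, SE 0.09, adjusted p 9.82e-10). NDUFS1 (0.73, SE 0.12) and SDHC (0.40, SE 0.10) were the ones that rose. None of the 79 reached a 2-fold change in either direction. Setting all mitochondrial counts aside before scaling left 1878 genes higher and 2096 lower and the counts of 43 lower respiratory chain and 39 higher lysosomal genes.

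Genes of the machinery that makes proteins fell more often than they rose in each of 4 lists. Of 78 cytosolic ribosomal proteins 65 fell (83.3%) and 1 rose (median −0.40), of 76 mitochondrial ribosomal proteins 38 fell and 1 rose (median −0.38), the latter 3 without abemaciclib replicate 2 and 2 without abemaciclib replicate 1, of 78 genes of ribosome biogenesis 28 fell and 2 rose (median −0.24), where the 2 became 1 without abemaciclib replicate 2, and of 53 tRNA synthetases and translation factors 25 fell and 7 rose (median −0.22). The summed level of the cytosolic ribosomal proteins was 111000, 110000 and 118000 CPM under DMSO and 85500, 83600 and 82500 CPM under abemaciclib. RPS19 went from 2500, 2530 and 2650 CPM to 1250, 1150 and 1090 CPM (−1.14, SE 0.08, adjusted p 5.79e-16) and RPS29 from 5330, 5200 and 5750 CPM to 2550, 2680 and 2580 CPM (−1.06, SE 0.07, adjusted p 1.66e-17). RPL22 was the exception, from 299, 284 and 295 CPM to 419, 390 and 404 CPM (0.46, SE 0.09, adjusted p 2.13e-05). FBL, the methyltransferase that modifies ribosomal RNA, went from 379, 362 and 393 CPM to 158, 160 and 160 CPM (−1.24, SE 0.09, adjusted p 1.17e-15), with no overlap. Ribosomal protein genes have many processed pseudogenes, and of 133 such pseudogenes tested 30 were lower and 8 higher.

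RNA splicing and protein degradation also moved downwards. Of 79 splicing factors 47 fell (59.5%) and 6 rose (median −0.41), and of 45 proteasome genes 30 fell (66.7%) and 0 rose (median −0.41). The 6 splicing genes higher became 3 without DMSO replicate 3 or without abemaciclib replicate 3. HNRNPH1, which binds guanine-rich splice signals, went from 217, 226 and 197 CPM to between 46.7 and 60.7 CPM (−1.95, SE 0.12, adjusted p 9.53e-19). The kinase genes CLK1 and CLK4, whose products phosphorylate splicing factors, rose by 1.13 (SE 0.27) and 1.75 (SE 0.32). PSMC3, an ATPase of the proteasome cap, went from 129, 116 and 128 CPM to 64.5, 49.9 and 59.1 CPM (−1.10, SE 0.13, adjusted p 1.44e-09). NFE2L1, the transcription factor that drives proteasome genes, rose all the same from 90.4, 89.9 and 86.3 CPM to 193, 171 and 191 CPM (1.06, SE 0.10, adjusted p 6.73e-12).

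**Figure D3:**
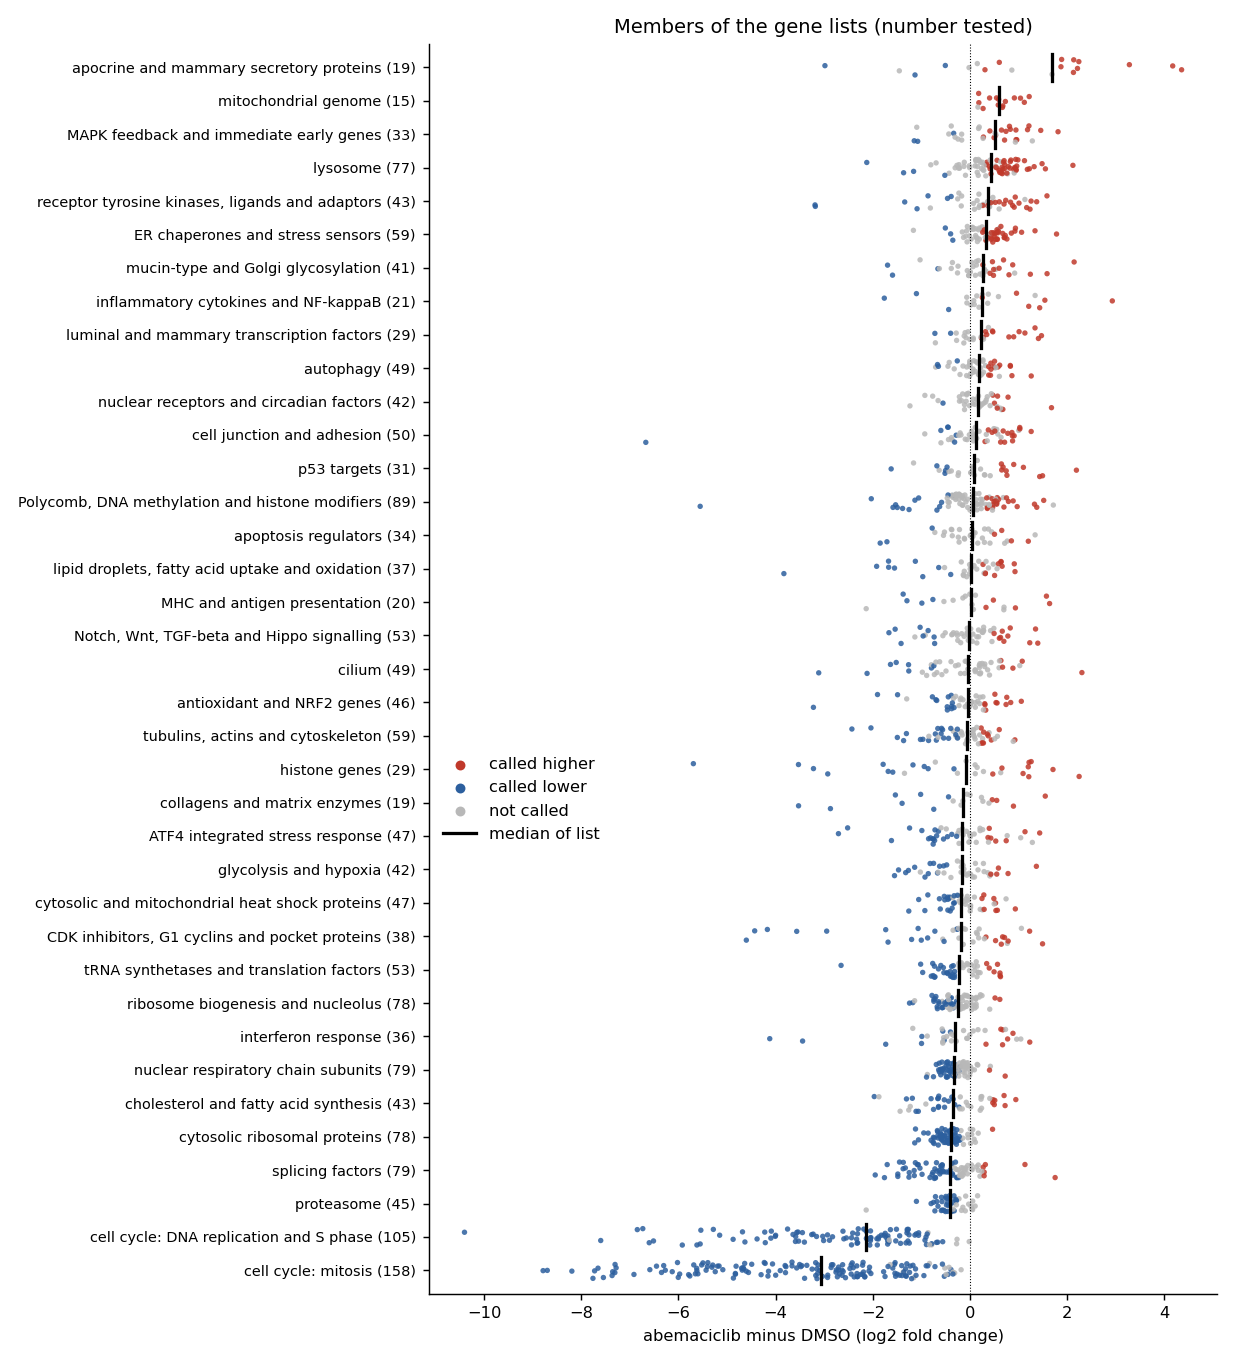
Log2 fold change between abemaciclib and DMSO (horizontal axis) of every tested member of the gene lists shown, each of at least 10 tested genes, ordered by median, with called members in red and blue, members not called in grey, the median of each list as a black bar and the median of all genes as a dotted line. The apocrine secretory list has the highest median (1.69) and the mitosis list the lowest (−3.06), and the lists of ribosomal, splicing and proteasome genes are shifted by small decreases in most members.

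The lists of lipid synthesis, glycolysis and the integrated stress response each held more genes that fell than rose. Of 43 genes of cholesterol and fatty acid synthesis 19 fell and 7 rose (median −0.34), with ELOVL6, which elongates saturated fatty acids, down from 23.4, 27.3 and 24.9 CPM to 6.45, 4.11 and 8.82 CPM (−1.97, SE 0.28, adjusted p 1.44e-07) and ACSL3, an acyl-CoA synthetase of the lipid droplet, up by 0.94 (SE 0.09). Of 42 glycolysis and hypoxia genes 13 fell and 5 rose. LDHA, which reduces pyruvate to lactate, went from 901, 710 and 865 CPM to 334, 359 and 335 CPM (−1.27, SE 0.09, adjusted p 1.80e-15), while TXNIP, which limits glucose uptake, went from 109, 86.1 and 106 CPM to 246, 243 and 288 CPM (1.37, SE 0.10, adjusted p 6.41e-15). Groups were apart for all 3 of the genes given by library. Of the 47 genes tied to ATF4 and the integrated stress response 18 fell and 7 rose. PHGDH, the entry enzyme of serine synthesis, went from 82.6, 81.8 and 98.2 CPM to 17.5, 10.9 and 17.3 CPM (−2.52, SE 0.17, adjusted p 2.54e-16), and the amino acid carrier SLC7A5 fell by 1.62 (SE 0.28). GDF15, a secreted stress hormone, rose from 54.6, 45.5 and 78.4 CPM to 162, 160 and 160 CPM (1.44, SE 0.13, adjusted p 2.24e-12).

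The metal-binding protein gene MT2A was the most abundant of the 12 largest decreases outside the cell cycle lists. It lies on GRCh38 chromosome 16 from 56608584 to 56609497, plus strand, and stood at 1450, 1400 and 1530 CPM under DMSO and at 146, 161 and 164 CPM under abemaciclib (−3.22, SE 0.09, adjusted p 1.47e-31). A lack of group overlap was a condition of the choice of MT2A. The antioxidant list to which it belongs was otherwise mixed, with 10 of 46 genes higher and 14 lower. GSTO1, a glutathione transferase, fell by 1.49 (SE 0.13), and the uncoupling protein gene UCP2 of the lipid oxidation list gained 0.91 (SE 0.10).

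Immune genes gave no common direction. Of 36 interferon response genes 7 rose and 8 fell, and the 7 became 4 without DMSO replicate 1. OAS3, a sensor of double-stranded RNA, went from 16.8, 21.9 and 22.1 CPM to 2.32, 1.76 and 1.31 CPM (−3.44, SE 0.36, adjusted p 9.05e-11). Of 20 genes of antigen presentation 5 rose and 4 fell, and the 5 became 3 without DMSO replicate 3 or without abemaciclib replicate 2. MIF, a secreted cytokine, had its lowest value in abemaciclib replicate 1, at 16.8 CPM against 49.3 and 75.1 CPM in the other 2 and 202, 141 and 127 CPM under DMSO, and its change (−1.76, SE 0.32, adjusted p 1.75e-05) had an adjusted p of 0.0696 with DESeq2.

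The cell cycle lists were the most reduced of all, with 98 of 105 replication genes and 148 of 158 mitosis genes lower and 0 higher in either. RRM2, the regulated subunit of ribonucleotide reductase, went from 193, 197 and 192 CPM to 1.29, 0.294 and 1.31 CPM (−7.60, SE 0.22, adjusted p 5.42e-31). Of the replication promoters 16 of 84 (19.0%) held TTTCCCGC, the letters of a strong E2F element, against 2.82% of all promoters, and of the mitosis promoters 73 of 131 (55.7%) held TTTGAA, the letters of the cell cycle homology region, against 9.22%. The member of each list with the largest decrease among those with its motif is printed in the same way, with TTTCCCGC or its reverse complement in capitals for CLSPN, and CCAAT and TTTGAA in capitals for CDCA3. CLSPN, a mediator of the replication checkpoint, went from 56.0, 58.7 and 49.2 CPM to 1.29, 0.881 and 0.327 CPM, and CDCA3, a trigger of mitotic entry, from 19.1, 19.5 and 7.92 CPM to 0 counts in all 3 abemaciclib libraries.
CLSPN promoter, chr1:35769959-35770228, minus strand: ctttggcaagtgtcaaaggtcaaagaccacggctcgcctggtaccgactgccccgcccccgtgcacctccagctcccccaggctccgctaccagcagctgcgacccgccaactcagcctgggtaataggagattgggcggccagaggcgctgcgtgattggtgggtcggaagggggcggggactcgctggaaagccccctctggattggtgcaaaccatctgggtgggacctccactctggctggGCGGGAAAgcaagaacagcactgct
CDCA3 promoter, chr12:6851267-6851536, minus strand: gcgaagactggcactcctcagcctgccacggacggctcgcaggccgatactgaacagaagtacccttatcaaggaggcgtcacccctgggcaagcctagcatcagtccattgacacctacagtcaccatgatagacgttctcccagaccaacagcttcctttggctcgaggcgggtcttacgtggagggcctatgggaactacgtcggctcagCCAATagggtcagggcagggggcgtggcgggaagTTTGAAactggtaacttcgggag
The element in CLSPN begins at position −5, and in CDCA3 CCAAT begins at −37 and TTTGAA at −3.

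The largest decrease on neither cell cycle list, among called genes of at least 10 CPM with no overlap, was that of PCLAF. This gene, which encodes a partner of the replication clamp, went from 278, 303 and 297 CPM to 1.81, 2.64 and 1.96 CPM (−7.08, SE 0.18, adjusted p 2.76e-32). WDR76 and CDKN2C went from 624 and 211 counts over the DMSO libraries to 10 and 8 counts, ratios of 63.8 (95% interval 34.5 to 134) and 27.0 (13.4 to 63.3). These exact intervals cover counting error only and take each read as a separate molecule, so PCR copies would make them too narrow. The fitted log2 fold changes leaned on single libraries, from −5.85 to −10.71 for WDR76 without abemaciclib replicate 3 and from −4.60 to −3.96 for CDKN2C without abemaciclib replicate 1. The remaining 9 of these 12 genes were RMI2, CDKN3, ZNF367, SH3BP1, NRM, OAS3, PHF19, MT2A and the histone gene H4C3, at −4.31 to −3.22, and ZNF367 reached −5.87 without abemaciclib replicate 3.

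Of 38 CDK inhibitors, G1 cyclins and pocket proteins 8 rose and 15 fell (median −0.18). BTG2, an antiproliferative gene, went from 5.20, 14.6 and 9.34 CPM to 24.0, 30.5 and 28.4 CPM (1.49, SE 0.27, adjusted p 1.62e-05) and CCNG2, an unconventional cyclin of quiescent cells, rose by 1.23 (SE 0.18). CDKN2C, which encodes the CDK4 and CDK6 inhibitor p18, fell, and CDKN1A, which encodes p21, had a value of −0.24 (SE 0.30, adjusted p 0.576). Of 31 p53 targets 10 rose and 5 fell, and the 10 became 6 without DMSO replicate 1. TP53INP1, which promotes autophagy and cell death, went from 7.22, 10.0 and 7.64 CPM to 46.2, 30.2 and 37.6 CPM (2.19, SE 0.22, adjusted p 4.55e-11), and the nuclease gene AEN fell by 1.62 (SE 0.26). Among 34 apoptosis regulators 4 rose and 3 fell, with the inhibitor XIAP (1.20, SE 0.14) and the survival gene MCL1 (0.85, SE 0.10) higher and the death agonist BID (−1.85, SE 0.27) lower.

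Of 89 Polycomb, DNA methylation and histone-modifying genes 21 rose and 14 fell (median 0.06). UHRF1, which recruits the maintenance DNA methyltransferase, had 212 counts over the DMSO libraries and 4 over the abemaciclib libraries, a ratio of 54.2 (95% interval 20.9 to 201), and CBX2 of the Polycomb complex fell by 1.53 (SE 0.27). The histone demethylase genes KDM5B and KDM6B rose by 1.38 (SE 0.13) and 1.52 (SE 0.31). Histone genes went both ways, with 9 of 29 higher and 11 lower. H4C3, which like most histone genes is expressed in S phase, went from 758, 778 and 824 CPM to 68.1, 103 and 83.0 CPM (−3.22, SE 0.12, adjusted p 1.02e-26), and H2AX fell by 2.93 (SE 0.18). H4C8 went the other way, from 32.9, 38.4 and 34.2 CPM to 196, 145 and 161 CPM (2.25, SE 0.13, adjusted p 1.85e-19), and H2BC8 gained 1.71 (SE 0.23). The libraries select polyadenylated RNA, and histone genes of near-identical sequence can exchange reads, so the split between histone genes is uncertain.

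Among the large symbol families, zinc finger genes were rarely lower. Of 361 tested ZNF genes 60 rose (16.6%, the same share as all genes) but only 16 fell (4.43% against 19.4%), with a median of 0.28, and ZNF292 and ZNF350 gained 1.56 (SE 0.19) and 1.53 (SE 0.29). Tripartite motif ligases gave 8 of 31 higher and 2 lower (1 without DMSO replicate 2), with TRIM56 at 1.21 (SE 0.17) and the corepressor TRIM28, a partner of many zinc finger proteins, at −0.48 (SE 0.11). Kinesins, motors on microtubules, gave 16 of 27 lower and 4 higher, the latter 2 without DMSO replicate 1 or without abemaciclib replicate 2. KIF20A, a motor of cytokinesis, had 307 counts over the DMSO libraries and 5 over the abemaciclib libraries, a ratio of 62.8 (95% interval 26.6 to 195). Of 10 potassium channel genes 5 fell and 1 rose (2 without DMSO replicate 3), with KCNK2 at −1.51 (SE 0.18). The tubulin gene TUBA1B fell from 2820, 2690 and 2570 CPM to 439, 384 and 414 CPM (−2.71, SE 0.08, adjusted p 3.19e-29), and of 59 tubulin, actin and cytoskeleton genes 20 fell and 10 rose, the latter 5 without abemaciclib replicate 2.

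Long noncoding RNAs were lower less often than genes at large, and higher about as often. Of 295 by annotation 46 rose (15.6% against 16.6% of all genes) and 24 fell (8.14% against 19.4%). MALAT1, a nuclear RNA, stood at 1600, 1600 and 1500 CPM under DMSO and at 3040, 4310 and 5300 CPM under abemaciclib (1.43, SE 0.13, adjusted p 3.76e-12), with abemaciclib replicate 1 again the lowest of its group. SNHG5, a host gene of small nucleolar RNAs, went from 115, 107 and 131 CPM to 193, 344 and 268 CPM (1.19, SE 0.15, adjusted p 5.22e-09), and its relative SNHG6 fell by 0.84 (SE 0.09). Antisense RNAs gave 21 of 154 higher, which became 12 without DMSO replicate 2 or without abemaciclib replicate 3, and 12 lower, and without strand their reads cannot be told apart from those of their partners.

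**Figure D4:**
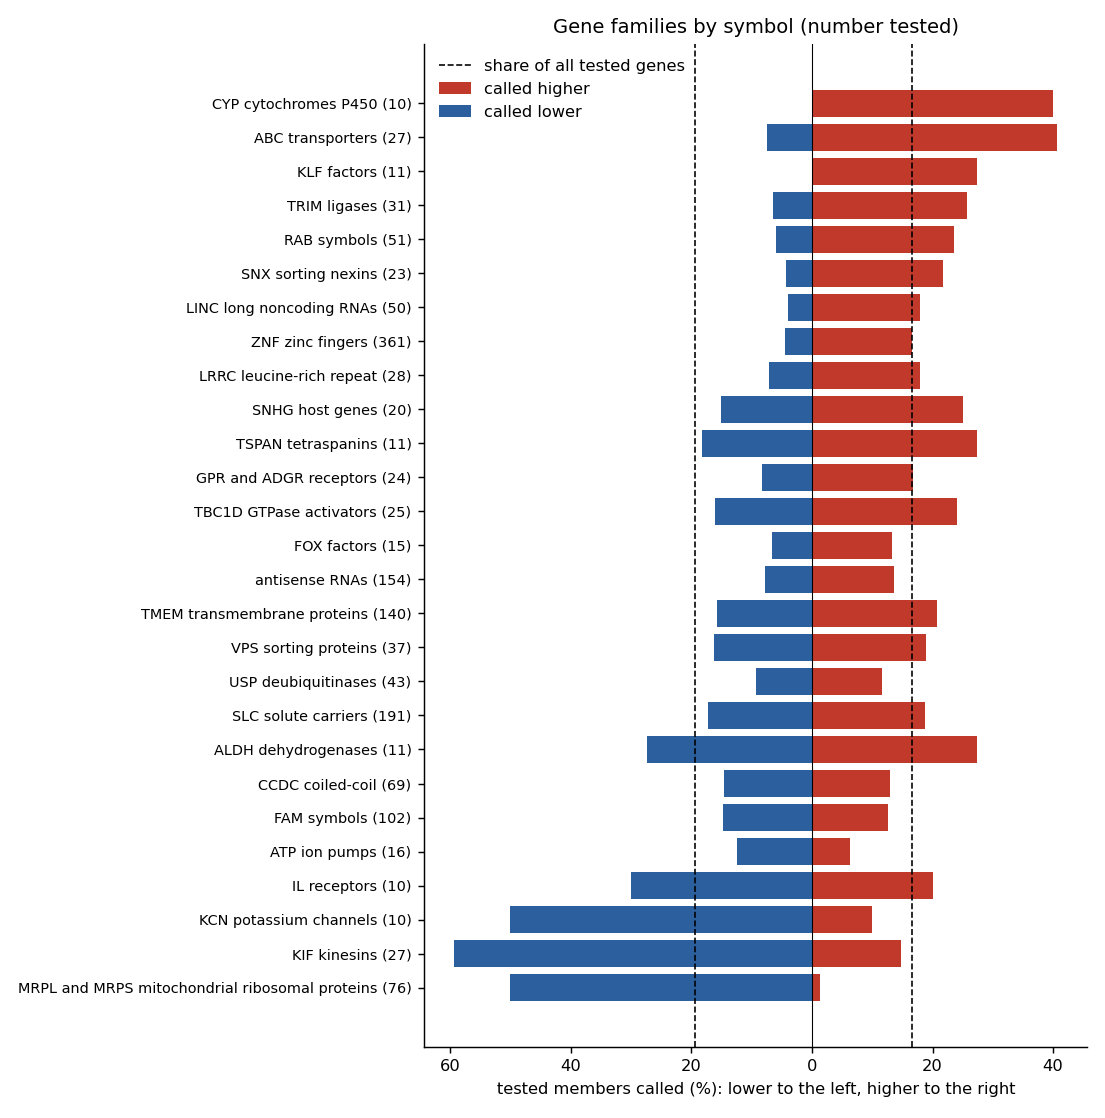
Share of tested members called higher (red, to the right) and lower (blue, to the left), in percent, for symbol families of at least 10 tested genes, with the shares over all tested genes (16.6% and 19.4%) as dashed lines. ABC transporters and cytochromes P450 exceed the higher line most, kinesins, potassium channels and mitochondrial ribosomal proteins exceed the lower line most, and zinc finger genes sit at the higher line with few members lower.

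Small shifts over many genes went with gene size. Genes were divided by genomic span, from start to end, into 5 bins of equal size. The bin of the shortest genes had a median log2 fold change of −0.14, with 12.7% higher and 27.7% lower, and that of the longest a median of 0.12, with 21.5% higher and 11.9% lower. Ribosomal, respiratory chain and proteasome genes are short, so their shift and this trend go together. A correction for GC content and length, chosen after the data were seen and possible for 94.7% of the tested genes, turned the balance to 2155 higher and 1734 lower. With it 51 of the 78 cytosolic ribosomal proteins were lower and 5 higher, 29 of the 79 nuclear respiratory chain genes lower and 4 higher, and 44 of the 77 lysosomal genes higher and 4 lower.

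The same drug step was then examined in 6 other libraries of the line, as the combination of abemaciclib and fulvestrant against fulvestrant alone. The contrasts share no library, although all 12 libraries entered the fit that set the spread. Of the 1843 genes higher with abemaciclib, 1104 (59.9%) were called higher there as well, where 17.2% of all genes were, and 31 were called lower. Of the 2144 lower genes, 1478 (68.9%) were called lower, where 19.4% of all genes were, and 5 were called higher. Shared calls of the same direction numbered 2582, which is 63.7% of the 1907 higher and 2145 lower calls of the second contrast, and the log2 fold changes had a correlation across genes of 0.81, a description, since genes are not independent. Of the named genes called in the first contrast, 210 of 254 were called in the same direction.

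The gene lists gave these counts in the second contrast. The apocrine list gave 12 of 19 higher and 3 lower, with PHGR1 at 4.48 (SE 0.23) and PIP at 3.30, but its median was 1.06 against 1.69 with abemaciclib alone, a difference that was not tested. The lysosome list gave 39 of 77 higher and 3 lower (median 0.49), the endoplasmic reticulum list 30 of 59 higher and 3 lower (median 0.36) and the proteasome list 26 of 45 lower and 0 higher (median −0.37). The cytosolic ribosomal proteins gave 48 of 78 lower and 5 higher (median −0.28) and the nuclear respiratory chain 30 of 79 lower and 7 higher (median −0.20), fewer than in the first contrast, a difference that was not tested. CYP4F8 had a log2 fold change of 3.32 there, against 1.88 with abemaciclib alone. The mitochondrial genome list gave 12 of 15 higher and 0 lower (median 0.69), with MT-RNR2 at 0.30 against 1.12 with abemaciclib alone. Some of the increases with abemaciclib alone were not called in the second contrast. Among them PDIA3 had a value of 0.21 (adjusted p 0.11), BATF 0.48 (adjusted p 0.305) and NDUFS1 0.14 (adjusted p 0.397). MTND1P23 had a value of 0.43 (adjusted p 0.172), MT-ATP8 −0.04 (adjusted p 0.888), SNHG5 −0.20 (adjusted p 0.307) and USP8, a deubiquitinase of endosomes that gained 0.95 with abemaciclib, −0.07 (adjusted p 0.722). The span trend was smaller in the second contrast, with medians of −0.06 for the shortest and −0.01 for the longest genes.

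**Figure D5:**
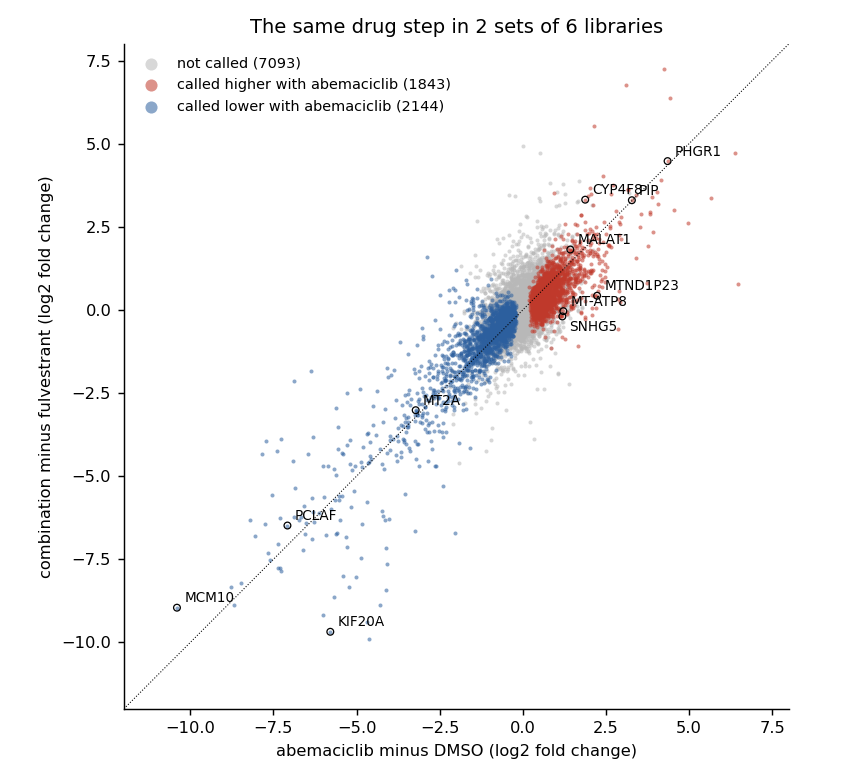
Log2 fold change of the combination against fulvestrant (vertical axis) and of abemaciclib against DMSO (horizontal axis) for each of the 11080 genes tested, coloured by the call with abemaciclib, with the dotted line marking equal values. PHGR1, PIP, PCLAF and MT2A lie near the line, and MTND1P23, MT-ATP8 and SNHG5 lie near 0 on the vertical axis.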

How the data were processed

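RNA levels came from 3′ RNA-seq with single-end reads of 12 MDA-MB-453 and 12 MDA-MB-231 libraries. The deposited table holds raw gene counts, whole numbers that the authors obtained by adapter and quality trimming with BBDuk, alignment to hg38 with STAR and counting with featureCounts on GENCODE v35. Strand, reads with several alignments, duplicates and molecular identifiers are not given in the sources used here. Each symbol is 1 line of the table, and the 1 line that names no gene holds 0 counts. Over library totals of 3326673 to 3952218 counts, the floor of 3 counts over a group was 0.281 CPM for DMSO and 0.274 CPM for abemaciclib.

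Tests on these counts used edgeR 4.0.16 under R 4.3.3 (filterByExpr, trimmed mean of M values, quasi-likelihood fit of the 12 MDA-MB-453 libraries, 2-sided tests, Benjamini-Hochberg adjustment). The difference between lines was tested over all 24 libraries. Gene lists and symbol families were written by hand, and the members, lists and rules were chosen with earlier results of these data known. Named genes were the 12 largest increases, the 3 largest decreases and the 12 largest decreases outside the cell cycle lists among called genes with a mean of 10 CPM or more and no overlap between groups, up to 2 called members in each direction from each list or family of at least 10 tested genes, the 8 largest gains and losses in CPM and 14 fixed genes. Other genes are said to be named after their values were seen, and the promoters shown were taken by motif. Gene positions came from GENCODE v44. The fit was tested on simulated data for abemaciclib against DMSO with 10800 genes, where 87% of 200 genes changed by 1 on the log2 scale were called, 5.43% of calls were false and 0 genes were called in an unchanged contrast. The 200 genes averaged at least 10 CPM, were balanced in direction and were far fewer than the genes called in the real data. The simulation thus does not cover rarer genes or scaling under a broad, lopsided response. The alternatives were DESeq2 1.42.0, its size factors, library totals, no filter, only the 6 libraries, a replicate block, no mitochondrial counts, a minimum of 2-fold, each library left out, and a GC and length correction chosen after the data were seen.

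Intervals and floors cover counting error only, with each read taken as a separate molecule. Replicates are labelled biological, but their cultures are not described further, so p-values measure the spread between these libraries. Some results are not reported here.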

Additional observations from a re-analysis of the deposited data

Results flagged for a closer look

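The effect of abemaciclib in MDA-MB-453 was set against that in MDA-MB-231 by a test of the difference itself, in which 20.7% of 12750 genes were called. Of the 24 genes with the largest increases and the largest decreases outside the cell cycle lists, 18 differed between the lines. These 24 were picked for their large change in MDA-MB-453, in libraries that also entered this test. A large difference was thus favoured by the choice, and the 18 are a description not to be set against the share of all genes. Values are differences of log2 fold changes, that of MDA-MB-231 taken from that of MDA-MB-453, with adjusted p.

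Among the increases the difference was 4.24 for SCGB2A2 (0.0139), 3.14 for INPP4B (2.37e-07), 2.83 for H4C8 (2.7e-07) and 2.79 for DUSP8 (0.000583). It was 1.77 for MTND1P23 (0.000431) and 1.39 for PTGES (0.0239). PHGR1, PIP, GPRC5B, ALDH3B2, UGT2B28 and CST4 were not called, and a missed threshold does not show that their effects were alike. The test could not decide on PHGR1, PIP, GPRC5B, ALDH3B2 and UGT2B28, whose fitted log2 fold change in MDA-MB-231 was 0.0. A fit gives such a value where a line has next to no counts of a gene, and then the difference cannot be estimated. Even the difference of 4.36 for PHGR1 was therefore not called. CST4 rose in MDA-MB-231 as well, by 5.45 (adjusted p 0.00199) against 2.24 in MDA-MB-453, and its difference was −3.2 (adjusted p 0.152).

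Among the decreases the difference was −6.53 for PCLAF (6.57e-28), −4.40 for RMI2 (2.82e-11), −4.39 for WDR76 (9.26e-09), −4.27 for CDKN2C (4e-10) and −4.20 for OAS3 (3.49e-10). It was −3.05 for ZNF367 (1.95e-05), −2.76 for CDKN3 (2.77e-11), −2.67 for PHF19 (1.11e-14), −2.41 for MT2A (6.09e-23), −2.33 for SH3BP1 (0.00153), −2.30 for NRM (4.42e-05) and −0.73 for H4C3 (0.0139). OAS3 moved in opposite directions by value, with −3.44 in MDA-MB-453 and 0.76 in MDA-MB-231.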

How the results depend on the processing

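Requiring a minimum change of 2-fold left 1353 genes, 502 higher and 851 lower. With any single library left out, calls numbered 3412 to 3799 genes, 1549 to 1744 higher and 1862 to 2055 lower. DESeq2 called 1673 higher and 1926 lower, and scaling by library totals 1477 and 2476. The replicate block gave 1788 higher and 2094 lower. Same-numbered samples did not deviate together (correlations −0.0206 to −0.00228), so the numbers were not taken to pair them. Of 258 named genes, 236 kept their call, or the lack of one, in every alternative run. The 2-fold minimum was not applied to single genes. None of the called genes changed direction. FOXA1, KRT18 and CDKN1A, which were not called, had values of either sign across the runs. Low counts limit fold changes of genes nearly absent with abemaciclib, and that of KIF20A was −5.79 with all libraries and −7.33 without abemaciclib replicate 2.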
